A study of Mus musculus with 3 samples.

Results

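The basal and stress keratins are 7 keratin genes, namely Krt15, Krt5 and Krt14 of basal epithelial cells and Krt17, Krt6a, Krt6b and Krt16 of stressed or wounded epithelium. They were chosen by name, as the probes whose gene name on the array is 1 of these symbols, which gave 8 probes for 7 of the 24812 named genes. Expression was measured in CLDE, a mouse dental epithelial cell line derived from the cervical loop and grown in serum-free keratinocyte medium. Cells were collected 72 h after transfection of a Krt15 siRNA duplex (siKrt15), of a non-targeting control siRNA (siNeg) or after a mock transfection, with 1 array for each. What the mock cells received is not stated in the sources used here. The study's title concerns Krt15 and the proliferation of cells in the outer enamel epithelium of the tooth.

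For 2 arrays the labels conflict. The title and source name say siKrt15 or siNeg, while the description and treatment entry say the opposite. Groups follow the titles throughout, so "siKrt15" stands for the array titled so. With 1 array per group no test between arrays was possible, no p-value is given, and no difference has a replicate check. All 3 arrays lay on 1 slide and were read in 1 scan. The whole line was measured in bulk, so fewer cells that express a keratin and less of its RNA per cell cannot be told apart.

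Keratins are the intermediate filament proteins of epithelia. A filament forms from pairs of a type I and a type II chain, so each acidic type I keratin needs a type II partner. Krt5 and Krt14 form the standard pair of basal cells in stratified epithelia, and Krt15 is a further type I keratin of the basal layer that can pair with Krt5 and marks slow-cycling cells of the hair follicle bulge. Krt6a and Krt6b are type II keratins that pair with the type I keratins Krt16 and Krt17, and this set is induced in skin at wound edges and in inflamed or activated keratinocytes. The outer enamel epithelium is the outermost cell layer of the enamel organ, the epithelial part of the developing tooth.

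The sequence under each reading decides which keratin it reports. The probes of Krt15, Krt6a and Krt6b are shown because Krt15 is the target of the siRNA, and because Krt6a and Krt6b encode near-identical proteins but differed unequally between the arrays. They are written 5′ to 3′ on the transcript strand, as the array files give them. The Krt15 probe, chr11:99993331-99993390 on mm9 (minus strand), is printed whole, with capitals for a stop codon that lies in frame with its first base. It holds no other stop in that frame, so it reads as the end of an open frame. For Krt6a (probe at chr15:101520361-101520420, minus strand) and Krt6b (probe at chr15:101506492-101506551, minus strand) a stretch of 30 bases is shown, with capitals for a polyadenylation-type hexamer where the probe has one.
Krt15: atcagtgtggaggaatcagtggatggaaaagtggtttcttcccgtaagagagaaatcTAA
Krt6a: tcgtaatttctaAATAAAgcaggtttatac
Krt6b: tcacatgatgccatctctgctctttgtttc

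The 60-base probes of Krt6a and Krt6b share no run longer than 7 bases, and match at 20 of 58 positions in their best ungapped alignment. The 2 Krt16 probes, made for 1 gene, are as unlike each other, with a run of 7 bases and 23 of 59 matches. Likeness between probes thus does not show which transcript a probe binds. Whether a probe also binds the transcript of another member was not tested. Between any 2 members the longest shared run was 10 bases, found between a Krt16 probe and the Krt14 probe. Against probes of other genes, runs of 13 to 17 bases were the longest, the 17 bases being shared by Krt6a and Gm5478. The hexamers AATAAA or ATTAAA, searched on the probe's own strand, occurred in 5 of the 8 member probes (Krt5, Krt14, Krt17, Krt6a and 1 of the Krt16 probes), against 13.4% of all 56598 probes on the array. The Krt15 probe and the Krt6b probe hold neither. The remaining members sit in the same keratin clusters on mm9, all on the minus strand: Krt5 at chr15:101537514-101537573, Krt14 at chr11:100064495-100064554, Krt17 at chr11:100117584-100117643, and Krt16 at chr11:100107408-100107467 and chr11:100107491-100107550. Exon and UTR annotation of these positions was not used here.

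Every value below is either a processed signal, which is the scanner's background-subtracted intensity in arbitrary units, or a log2 difference between 2 arrays after each array's 75th percentile was subtracted. All 8 probes were well above background and unsaturated on all 3 arrays. Errors are SDs computed from the error model that the scanner software applies to each spot. That model gave every member nearly the same relative error, which comes to 0.20 for a log2 difference of 1 probe, so it is a general allowance and not a spread measured for the gene. Among probes spotted repeatedly on an array (300 probes), the median SD of log2 signal between spots was 0.05 on each of the 3 arrays.

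The line carried the markers of an epithelium. All 5 epithelial markers (Epcam, Cdh1, Cldn4, Esrp1 and Trp63) were above background on every array, with summed signals of 11822 (siKrt15), 11659 (siNeg) and 11275 (mock). Sums here join the unscaled signals of each gene's brightest probe, so their order also depends on how bright each array was. The 75th percentile was highest in siKrt15 (216.0, against 180.4 in siNeg and 191.1 in mock). After scaling, siKrt15 minus siNeg was 0.53 for Epcam, 0.15 for Cldn4, −0.24 for Cdh1, −0.42 for Esrp1 and −0.32 for Trp63. Among dental epithelial markers, Sox2 was above background on every array, and Shh and Lgr5 were not on any array. Of 3 enamel matrix genes of ameloblasts, 0 were above background in siKrt15, 1 (Amelx) in siNeg and 1 (Amelx) in mock, and Ambn and Enam were not on any array. Amelx was dim throughout, its brightest probe reading 4.0 in siKrt15, 5.0 in siNeg and 4.8 in mock, so no loss in siKrt15 can be read from this. Of the 7 mesenchymal markers, 6 were above background in siKrt15, 6 in siNeg and 7 in mock, at summed signals of 306 in siKrt15, 330 in siNeg and 349 in mock. Vim was the one missing from siKrt15 and siNeg, and it was dim on all arrays (3.7 in siKrt15, 3.9 in siNeg and 7.6 in mock). These sums join genes with opposite log2 differences for siKrt15: Dcn stood at −1.07 against siNeg and −1.20 against mock, Pdgfra at −0.94 and −0.67, and Col1a1 at 0.85 and 0.98. Endothelial markers were above background for 1 of 4 genes (Pecam1), and Cdh5, Kdr and Tek did not on any array. Of blood markers, probes for Ptprc, Cd68 and Cd3e were above background on each array and Adgre1 was not, with summed signals of 2762 in siKrt15, 2658 in siNeg and 2883 in mock. A marker counted as above background if at least 1 of its probes was. For Ptprc this held for only 2 of 7 probes on each array, but for 3 of 3 for Cd68 and 2 of 2 for Cd3e. Of the mesenchymal markers, Col3a1 had 1 of 3 probes above background on each array. Col1a2 had 1 of 4 in siKrt15 and siNeg and 2 of 4 in mock. What part other cells had in the keratin readings was not tested.

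**Figure D1:**
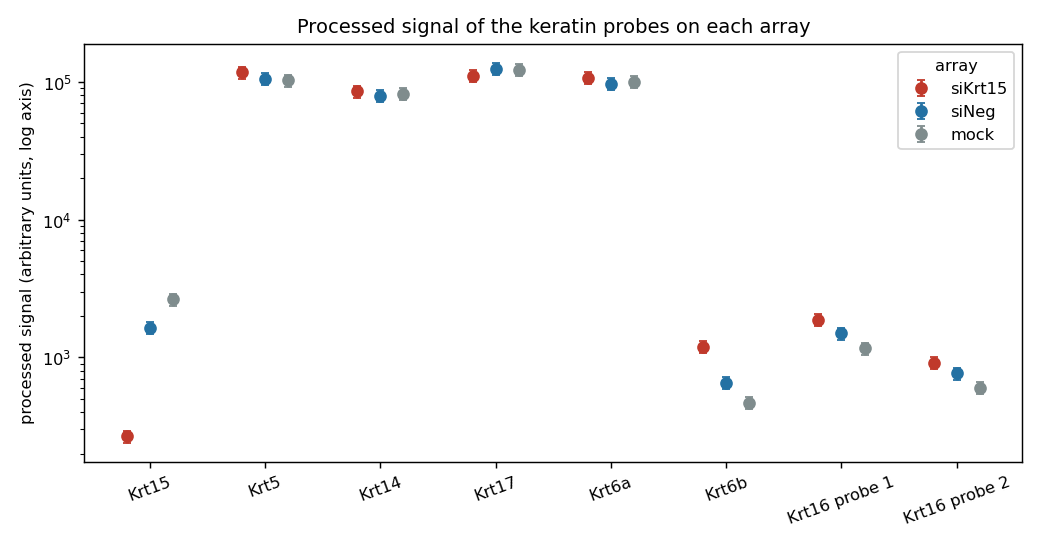
Processed signal (arbitrary units, log axis) of the 8 keratin probes on the siKrt15, siNeg and mock arrays, with the scanner's error-model error as bars. Krt15 is lowest in siKrt15 (267, against 1647 in siNeg and 2638 in mock), Krt6b and both Krt16 probes are highest in siKrt15 and lowest in mock, and the probes of Krt5, Krt14, Krt17 and Krt6a lie close together on the 3 arrays.

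Krt15, the siRNA target, had the largest difference of the 7 members. It read 267 in siKrt15, 1647 in siNeg and 2638 in mock. Of the arrays, siKrt15 was the lowest by a wide margin, and siNeg lay below mock. On the log2 scale the difference was −2.88 ± 0.20 for siKrt15 minus siNeg, a 7.38-fold lower level, and −3.48 ± 0.20 for siKrt15 minus mock, 11.2-fold lower. Among the 17121 genes measured on both arrays only 1 had a lower difference than Krt15 against siNeg, and that gene, Gm1096, was dim (10.9 in siKrt15, 69.7 in siNeg). Against mock, 0 of 17130 genes were lower. Krt15 was still well above background in siKrt15, and this probe's direction goes with the array titles and not with the treatment entries.

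Krt15 also separated the control arrays. Its log2 difference for siNeg minus mock was −0.60 ± 0.20, or 1.51-fold lower in siNeg, and 142 of 17416 genes had a lower one. It was the only member below 0 in that comparison under the 75th percentile scaling. The difference kept its sign in all 8 scalings tried, at −0.77 to −0.59.

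Krt5 and Krt14, the standard pair of basal cells, had log2 differences within their error in every comparison. Krt5, the type II chain, read 117327 in siKrt15, 105468 in siNeg and 102674 in mock. Krt14, the type I chain, read 85532 in siKrt15, 79723 in siNeg and 81589 in mock. On unscaled signals both were a little brighter in siKrt15 than in either control. After scaling, the log2 difference against siNeg was −0.11 ± 0.20 for Krt5 and −0.16 ± 0.20 for Krt14, each smaller than its error. Against mock, Krt5 stood at 0.02 and Krt14 at −0.11.

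The sign of these small values depends on the scaling. For siKrt15 minus siNeg, Krt5 ranged from −0.14 to 0.29 and Krt14 from −0.20 to 0.21 over the 8 scalings, with 4 of 8 above 0 for each. Against mock, Krt5 ranged from −0.02 to 0.38, with 7 of 8 above 0. Krt14 ranged there from −0.15 to 0.23, with 3 of 8 above 0. The highest value of each gene in both comparisons exceeded the error of 0.20. No direction is therefore given for the pair. Neither gene reached 1.5-fold in any of these settings. Between siNeg and mock, Krt5 differed by 0.12 and Krt14 by 0.05, and both turned negative with spike-in scaling (−0.05 and −0.12).

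Krt17 and Krt6a, a type I and a type II keratin of activated epithelium, differed from each other in how they compared with the controls before scaling. Krt6a read 107504 in siKrt15, 97455 in siNeg and 99914 in mock. Its log2 difference was −0.12 ± 0.20 against siNeg and −0.07 ± 0.20 against mock, within the error, and it changed sign with scaling (−0.16 to 0.27 against siNeg). Krt17 read 110394 in siKrt15, 124894 in siNeg and 121889 in mock, so that siKrt15 was the lowest array even before scaling. Its difference was −0.44 ± 0.20 against siNeg and −0.32 ± 0.20 against mock, or 1.36-fold and 1.25-fold lower. Krt17 lay below 0 in 8 of 8 scalings against siNeg, where the value closest to 0 was −0.03, and in 7 of 8 against mock, where it was 0.05 with the signal trend removed.

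The difference moved with signal on the siKrt15 array, and the part of this in the values of these 4 genes was not tested beyond the settings given. Of 255 probes with a processed signal of at least 50000 on all 3 arrays, 0 lay above 0 for siKrt15 minus siNeg, and their median was −0.35 (quartiles −0.42 and −0.27). This set of bright probes was chosen after the data were seen. The probes of Krt5, Krt14, Krt6a and Krt17 are 4 of these 255. Only 7 of the 255 had a higher difference than Krt5, 11 a higher one than Krt6a and 18 a higher one than Krt14. Krt17 lay on the other side of that median, with 203 of 255 above it. For siKrt15 minus mock 6 of the 255 lay above 0 and their median was −0.32, with 2 probes above Krt5, 12 above Krt6a, 26 above Krt14 and 127 above Krt17, which sat at the median. Krt5, Krt6a and Krt14 thus had higher differences than most of these bright probes in both comparisons, which share the siKrt15 array, and Krt17 did not. For siNeg minus mock the 255 probes had a median of 0.04.

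**Figure D2:**
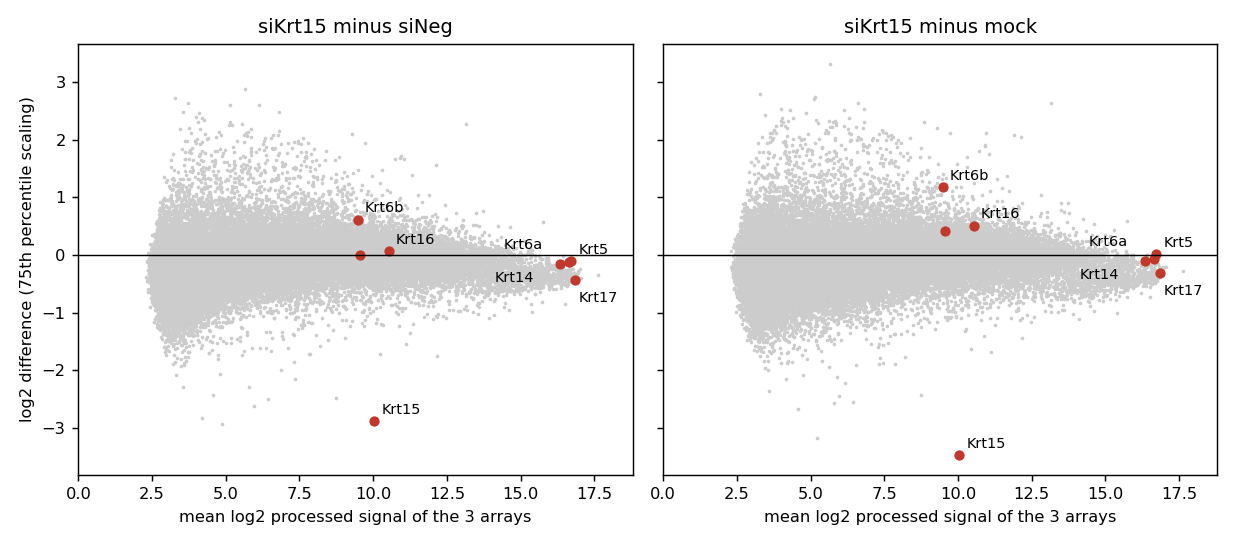
Log2 difference (75th percentile scaling) against the mean log2 processed signal of the 3 arrays, for probes well above background on all arrays (grey) with the keratin probes in red. Left, siKrt15 minus siNeg; right, siKrt15 minus mock. The cloud bends below 0 at high signal, Krt5, Krt6a and Krt14 lie along its upper edge there, Krt17 lies within it, and Krt15 stands far below it.

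Krt6b was the only member at least 2-fold higher in any comparison. Krt6b read 1196 in siKrt15, 651 in siNeg and 466 in mock. Here siKrt15 was the highest array and mock the lowest. The log2 difference of Krt6b was 0.62 ± 0.20 against siNeg, 1.53-fold higher, and 1.18 ± 0.20 against mock, 2.27-fold higher. Against siNeg 756 of 17121 genes had a higher difference, and against mock 241 of 17130 did. Krt6b stayed above 0 in 8 of 8 scalings, at 0.58 to 0.88 against siNeg and 1.14 to 1.39 against mock. Part of this gap was present between the controls, where siNeg exceeded mock by 0.57 ± 0.20, or 1.48-fold, with 458 of 17416 genes higher.

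Krt16, the type I stress keratin with 2 probes, was higher than in mock on both siRNA arrays by a similar amount. Its first probe read 1873 in siKrt15, 1495 in siNeg and 1161 in mock. Its second probe read 914 in siKrt15, 765 in siNeg and 603 in mock. Both probes put the arrays in the same order. After scaling, siKrt15 and siNeg differed by 0.07 at the first probe and by −0.003 at the second, and the gene value was 0.03 ± 0.14. Against mock the probes gave 0.51 and 0.42 for siKrt15, and 0.45 and 0.43 for siNeg. The gene value was thus 0.47 ± 0.14 for siKrt15 minus mock and 0.44 ± 0.14 for siNeg minus mock, at 1.38-fold and 1.35-fold higher.

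Krt6b and Krt16 were therefore higher on both siRNA arrays than in mock, while Krt15 was lower on both. For siNeg minus mock, a comparison in which 0 of the 7 members passed 2-fold, these were the 3 members with the largest differences. Krt6b and Krt16 kept their sign there with spike-in scaling, at 0.39 and 0.26. Whether the non-targeting duplex itself moved them was not tested, since each condition has 1 array.

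**Figure D3:**
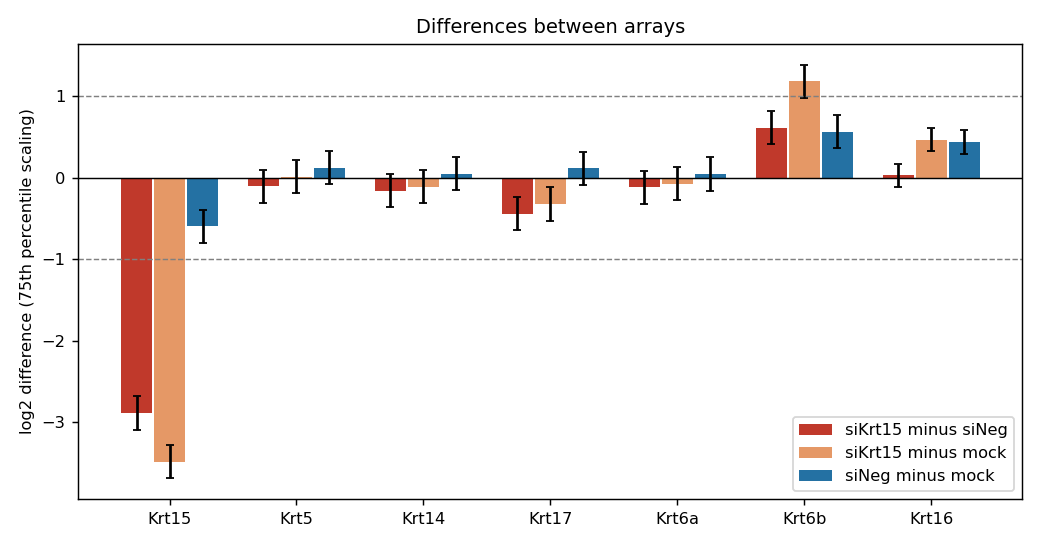
Log2 differences (75th percentile scaling) of the 7 keratins for siKrt15 minus siNeg, siKrt15 minus mock and siNeg minus mock, with the error-model SD as bars and dashed lines at 2-fold. Krt15 lies at −2.88 and −3.48, Krt6b passes 2-fold only against mock (1.18), and Krt5, Krt14 and Krt6a lie within their error of 0 in all 3 comparisons.

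Comparing the differences of 2 keratins on the same pair of arrays removes any constant between arrays, and these pairs were chosen after the data were seen. Relative to Krt5, its potential type II partner, Krt15 was lower in siKrt15 than in siNeg by a further log2 ratio of −2.78 ± 0.29 and lower than in mock by −3.50 ± 0.29. Between siNeg and mock, Krt15 relative to Krt5 was at −0.72. Krt14 relative to Krt5 was at −0.05 ± 0.29 against siNeg (−0.08 to 0.002 over all settings) and −0.12 ± 0.29 against mock. The ratio within the standard basal pair thus differed between siKrt15 and siNeg by less than its error, while that of Krt15 to Krt5 was 6.86-fold lower in siKrt15.

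The stress keratins differed unequally. Krt6b relative to Krt6a was higher in siKrt15 by 0.73 ± 0.29 against siNeg and by 1.26 ± 0.29 against mock. Removing the signal trend lowered these values to 0.35 and 0.88, so the sizes, though not the signs, rest on that choice. Krt6b relative to Krt16 was higher in siKrt15 by 0.59 ± 0.25 against siNeg (0.55 to 0.59 over all settings) and by 0.72 ± 0.25 against mock. For Krt17 relative to Krt6a the values were −0.32 ± 0.29 against siNeg and −0.25 ± 0.29 against mock. Krt16 relative to Krt6a was 0.15 ± 0.25 against siNeg and turned to −0.22 with the signal trend removed, whereas against mock it was 0.54 ± 0.25 and above 0 in every setting (0.17 to 0.58).

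Counted at 2-fold, 1 of the 7 members (Krt15, lower) differed between siKrt15 and siNeg, where 3.70% of 17121 genes did, 291 of them higher and 342 lower. Against mock, 2 of 7 members passed 2-fold (Krt6b higher and Krt15 lower), beside 3.43% of 17130 genes, 374 higher and 213 lower. Between siNeg and mock 0 of 7 passed, beside 0.402% of 17416 genes, 62 higher and 8 lower. Krt15 is the gene the siRNA was made against. At 1.5-fold the counts were 2 of 7 against siNeg (Krt6b joining), beside 13.4% of genes, 2 of 7 against mock, beside 13.5%, and 1 of 7 (Krt15, lower in siNeg) for siNeg minus mock, beside 3.28%. Without Krt15 the median of the other 6 members was −0.11 against siNeg, −0.03 against mock and 0.12 for siNeg minus mock, beside medians over all genes of −0.08, −0.06 and 0.02.

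**Figure D4:**
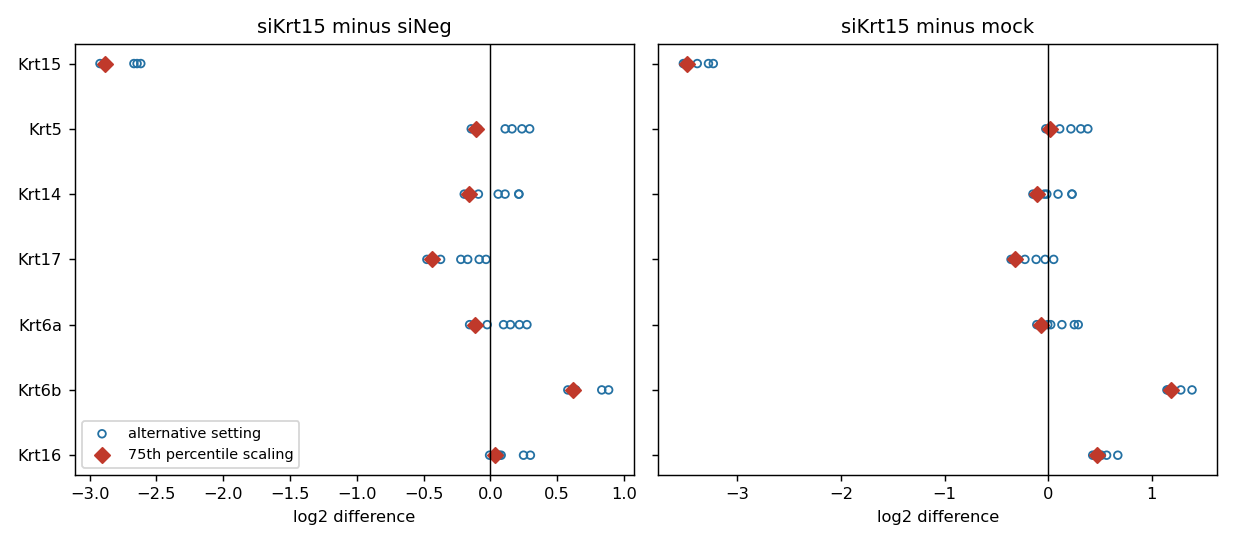
Log2 difference of each keratin under the 75th percentile scaling (red diamond) and under the alternative settings (blue circles), for siKrt15 minus siNeg and siKrt15 minus mock. Krt15 and Krt6b keep their side of 0 in every setting, while Krt5, Krt14 and Krt6a fall on both sides. Krt16 falls on both sides against siNeg only (lowest −0.007), and Krt17 against mock only (highest 0.05).

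The genes around Krt15 did not share its difference. On chromosome 11 (mm9), 17 keratin genes had 20 probes measured on all arrays, and Krt15 was the only one at least 2-fold lower against siNeg or mock. Krt13, with probes at −12.9 and −12.6 kb from the Krt15 probe, stood at −0.12 and −0.41 against siNeg. Krt19, at 9.1 kb on the other side, was higher by 1.32, although it was dim (24.6 in siKrt15, 8.2 in siNeg). It stood at 0.09 with normexp, a background correction that adds 50 to every spot and so shrinks the differences of dim genes. Krt14, Krt16 and Krt17 follow at 71.2, 114.1 and 124.3 kb. In the cluster on chromosome 15, Krt6a lies at −17.2 and Krt6b at −31.0 kb from the Krt5 probe, and of these 3 neighbours Krt6b alone differed by over 1.5-fold.

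**Figure D5:**
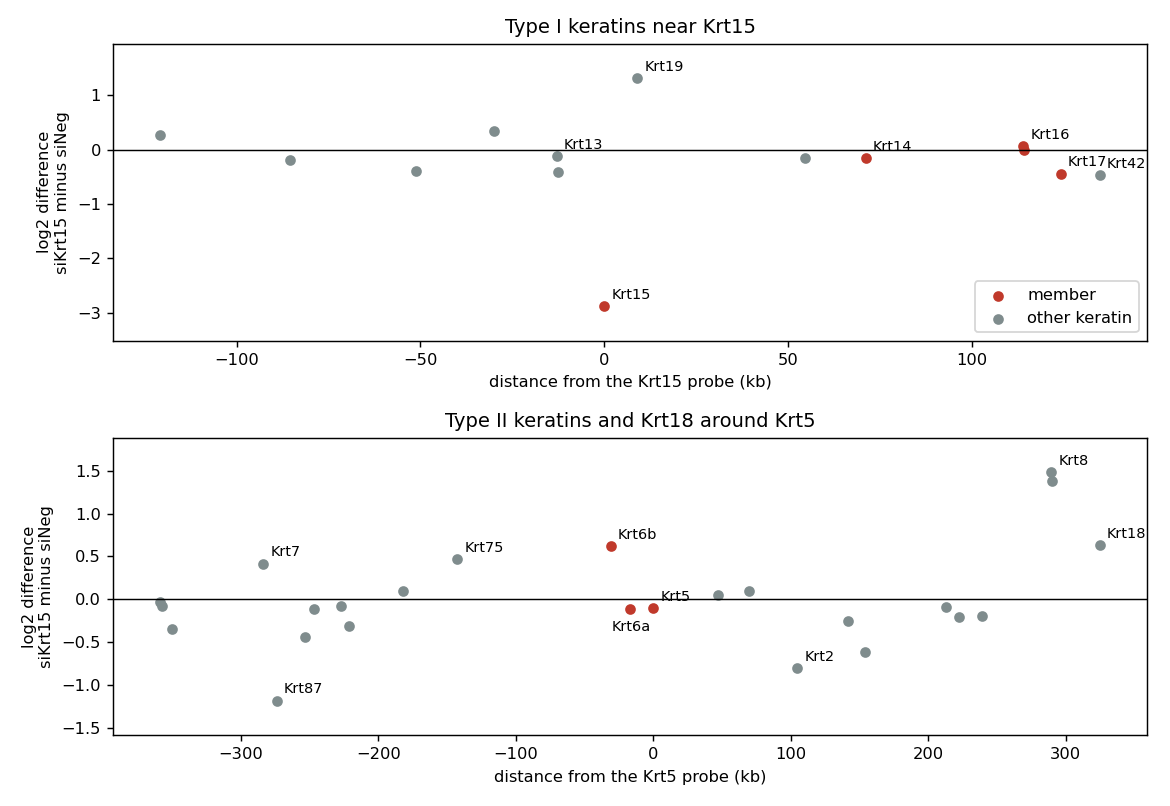
Log2 difference for siKrt15 minus siNeg of keratin probes measured on all arrays, in the stretch around Krt15 (top) and around Krt5 (bottom), against distance in kb from the probe of that gene, with members in red and other keratins in grey. Krt15 (−2.88) lies between Krt13 (−0.12 and −0.41) and Krt19 (1.32), and Krt6b (0.62) lies beside Krt6a (−0.12) and Krt5 (−0.11).

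Of the 6 listed simple epithelial keratins, 4 were well above background on both the siKrt15 and siNeg arrays, and these were higher in siKrt15, namely Krt8 (1.43, probes 1.38 and 1.48), Krt19 (1.32), Krt18 (0.63) and Krt7 (0.41), with a median of 0.97 beside −0.08 for all genes. The remaining pair was dim and not above background in siKrt15, and read lower there: Krt20 had signals of 3.8 in siKrt15 and 5.7 in siNeg, and Krt23 had 4.4 in siKrt15 and 6.2 in siNeg, or −0.84 and −0.77 without the filter. The median over all 6 without the filter was 0.52, and that of the measured genes was 0.46 with normexp and 0.63 with the stricter filter. Counted at 2-fold, 2 of 4 passed against siNeg (Krt8 and Krt19), where 3.70% of all genes did, and 1 of 4 (Krt8) against mock, where 3.43% did. Of the 17 keratins of differentiating or follicular epithelium, 11 were measured in that comparison and 0 reached 2-fold. Krt10, the type I keratin of differentiating epidermal cells, read 347 in siKrt15, 263 in siNeg and 284 in mock, a difference of 0.14. The lowest were Krt2 (−0.81, signal 38.5 in siKrt15 and 56.3 in siNeg) and Krt24 (−0.81, signal 80.0 in siKrt15 and 116.9 in siNeg).

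Keratin filaments of basal cells end on hemidesmosomes and desmosomes. Of 9 hemidesmosome genes, all measured, 0 reached 2-fold in any comparison, and their median was 0.05 against siNeg and 0.06 against mock. The integrin chain Itga6 stood at 0.41, the tetraspanin Cd151 at 0.40 and the laminin chain Lamb3 at 0.26. The Itga6 probes disagreed in size, with 1 at 0.07 and 1 at 1.11. Dystonin (Dst), a linker that holds keratin to the hemidesmosome, stood at −0.58 over 5 probes, 1 of them at −1.06. Plec, in the same list, stood at −0.03. Of 12 desmosome and linker genes 11 were measured and 0 reached 2-fold, with a median of −0.11 against siNeg. The desmosomal cadherin Dsg2 stood at 0.41, Dsg3 at −0.27, plakophilin 2 (Pkp2) at −0.25 and periplakin (Ppl) at −0.26. Probes disagreed for Dsg3 (−0.55 and 0.01) and Pkp2 (0.03, −0.55 and −0.22). Dsg2 rested on 1 of its 3 probes and ranged from 0.22 to 0.68 over settings. Its probes were dim, averaging 10.7 in siKrt15 and 7.7 in siNeg.

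Transcription factors of keratinocytes showed no common direction. Of 16 measured, 9 lay above 0 against siNeg and 0 reached 2-fold, and the median was 0.05 against siNeg and −0.01 against mock. Tfap2a, an activator of basal keratin genes, was at −0.51 against siNeg and Klf5 at −0.62, whereas Grhl3 was at 0.57 and Barx2 at 0.81. Barx2 read 63.6 in siKrt15 and 30.3 in siNeg on 1 probe. It ranged from 0.26 to 1.08 over settings, and Grhl3 from 0.53 to 0.84. Trp63, the master factor of stratified epithelium, was at −0.32 against siNeg and −0.56 against mock. Among 15 measured regulators of stress keratin genes 0 reached 2-fold and the median was −0.09 against siNeg. Fos of the AP-1 complex stood at 0.83, with its partners Jun at −0.66 and Jund at −0.58, and Nfe2l2 (Nrf2), an inducer of Krt6a, Krt16 and Krt17 in skin, at −0.47 (probes −0.12 and −0.82).

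Among other genes of wound-activated keratinocytes, 3 defence and envelope genes were lower in siKrt15. Of 15 listed, 11 were measured, with a median of −0.45 against siNeg and −0.40 against mock, and 3 were at least 2-fold lower and 0 higher in each comparison. Over all genes, 342 of 17121 were 2-fold lower against siNeg and 213 of 17130 against mock, and both comparisons share the siKrt15 array. Lipocalin 2 (Lcn2), an iron-withholding defence protein, averaged 1272 in siKrt15, 3536 in siNeg and 2930 in mock, a difference of −1.74 against siNeg. The calcium-binding alarmin S100a9 read 57.0 in siKrt15, 121.1 in siNeg and 105.7 in mock (−1.35), and the cornified envelope precursor Sprr2d read 97.1 in siKrt15, 171.3 in siNeg and 315.1 in mock (−1.08). Over settings, Lcn2 stayed past 2-fold, at −1.77 to −1.47 against siNeg and −1.45 to −1.18 against mock. S100a9 did not, at −1.38 to −0.84 against siNeg and −1.11 to −0.66 against mock. Sprr2d ranged from −1.12 to −0.80 against siNeg and from −1.91 to −1.45 against mock. The count of 3 genes therefore depends on the setting. Sprr1a stood at −0.81. The list was not uniform, since 4 of the 11 lay above 0, namely Il1rn (0.73), Hbegf (0.72), Areg (0.58) and Il1a (0.16), which are named after their values were seen. The 2 Il1rn probes disagreed in size (1.30 and 0.16). Hbegf rested on 1 of its 2 probes and ranged over settings from 0.18 to 0.98 against siNeg and from −0.16 to 1.15 against mock. The median stayed below 0 in every setting tried, at −0.57 to −0.18 against siNeg.

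Of 10 other intermediate filament and keratin-binding genes, 9 were measured against siNeg, 0 at 2-fold, with a median of −0.06. Epiplakin (Eppk1), a keratin-binding plakin, was lowest at −0.87 (probes −0.82 and −0.93), at mean signals of 1675 in siKrt15, 2556 in siNeg and 2385 in mock. Sfn, a 14-3-3 protein, stood at −0.30, lamin B2 (Lmnb2) at 0.33 (probes 0.57 and 0.08) and syncoilin (Sync), which was dim, at −0.36.

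Likeness of pattern was measured as the distance between pairs of log2 differences (siKrt15 minus siNeg, siKrt15 minus mock) over 3 arrays, among 12931 genes whose measured probes went the same way. Nearest to Krt15 were Tmprss4 (−2.50 and −2.49), Cryba2 (−1.91 and −2.36) and Gm1096 (−2.93 and −1.80), at distances of 1.06, 1.48 and 1.68, so none lay close to it. Nearest to Krt6b were Slc26a9 (0.63 and 1.11), Gm36033 (0.60 and 1.09) and the Wnt inhibitor Apcdd1 (0.71 and 1.24), at distances of 0.08, 0.10 and 0.11. Of these 6 genes, Cryba2, Gm1096, Slc26a9 and Gm36033 had signals of at most 31.1 in siKrt15.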

How the data were processed

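Cy3-labelled cRNA was hybridised to 1-colour Agilent arrays, per the labels' protocols. The deposited scanner files hold intensity values per spot, background-subtracted and detrended by Agilent Feature Extraction (11.5.1.1, per the submitters' processing notes), with probe coordinates on mm9 per the file headers. A deposited value table on the log2 scale followed the log2 processed signal less a constant near the 75th percentile, within 0.01 for 92.4% (siKrt15), 94.0% (siNeg) and 93.8% (mock) of probes. Its column medians are −3.72 (siKrt15), −3.51 (siNeg) and −3.52 (mock), and genes are not centred.

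Spots marked as outliers were left out (85, 68 and 69 on siKrt15, siNeg and mock), log2 signals averaged per probe, and the array's 75th percentile (216.0 in siKrt15, 180.4 in siNeg, 191.1 in mock) subtracted. Well above background were 67.3% (siKrt15), 69.2% (siNeg) and 69.0% (mock) of 59305 spots. A gene's value was the mean over probes well above background on both arrays, and 2-fold was the threshold. Names came from RefSeq GRCm38.p6 (32989 probes by accession, 10224 by symbol, 520 by synonym). Named genes were the members, the other keratins, in each list at most 4 genes ranked by the size of their difference against siNeg, and the 3 nearest patterns. Trp63 was added after its value was seen, and 1 listed marker is not reported here. Members and lists were chosen with earlier results of these data known. Alternatives were other scalings, normexp with an offset of 50 (limma 3.58.1), quantile normalization, lowess trend removal (statsmodels 0.14.6) and the deposited table. Further ones were other filters on dim probes and the brightest probe per gene. The procedure was tested on simulated data. The number of arrays limits the precision.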

Additional observations from a re-analysis of the deposited data

How the results depend on the processing

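The Krt15 difference kept its sign under all 10 alternatives. Against siNeg it was −2.67 with median scaling, −2.62 with spike-in scaling and −2.64 with normexp, and against mock −3.23 with normexp. The count of members at 2-fold stayed at 1 (siNeg) and 2 (mock) under the 10 alternatives, and at 1.5-fold it was 2 against siNeg and 1 for siNeg minus mock. Of 180 values of the other 6 keratins under alternatives, 150 moved by no more than the error-model SD and 30 by more, and the cause was not tested. Of 240 list medians, 27 moved by more than the median error-model SD.

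Counts over all genes varied more. Against siNeg, 633 genes at 2-fold became 105 with normexp, 2547 with no filter on dim probes, 318 with the stricter filter and 2298 at 1.5-fold. Against mock, 587 became 126, 2195 and 2315 with normexp, no filter and 1.5-fold. For siNeg minus mock, 70 became 45 with spike-in scaling, 0 with normexp, 1249 with no filter, 4 with the stricter filter and 571 at 1.5-fold. Normexp adds 50 to every spot, above the median processed signal of each array (16.3 in siKrt15, 15.8 in siNeg, 16.6 in mock). That constant pulls the log2 differences of dim genes towards 0, so the normexp counts cannot show whether those genes differ.

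The share of higher genes among all genes past 2-fold against siNeg was 46.0%, but 77.3% with median scaling, 82.6% with spike-in scaling, 78.1% with normexp, 72.6% with quantile normalization, 75.9% with the signal trend removed and 73.3% with the stricter filter. It was lower with no filter on dim probes (18.7%) and at 1.5-fold (35.7%). Against mock it was 63.7%, but 85.7% with median scaling, 76.0% with spike-in scaling, 81.0% with normexp, 82.2% with quantile normalization and 83.6% with the trend removed, with 77.0% for the stricter filter, 29.4% for no filter and 43.1% at 1.5-fold. For siNeg minus mock the share was 88.6%, but 53.3% with spike-in scaling, 66.9% with no filter, 73.9% at 1.5-fold and 100% (4 of 4 genes) with the stricter filter. The median of all genes against siNeg moved by 0.22 with median scaling, 0.27 with spike-in scaling and 0.11 with the trend removed, and by −0.12 with no filter on dim probes. Against mock it moved by 0.20 and 0.11 with median scaling and the trend removed, and for siNeg minus mock by −0.17 with spike-in scaling.

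No paired analysis was possible because each group has 1 array.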
